A study of Mus musculus with 18 samples.

Results

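Mouse Dux was switched on in C2C12 cells, an established line of mouse myoblasts, and the polyA RNA of 3 induced cultures was compared with that of 3 uninduced cultures across all genes. These are 6 of the 18 libraries of the series, chosen by their labels alone. The induced cells carried a doxycycline-inducible, codon-altered mouse Dux transgene and received 2 µg/ml doxycycline for 36 hours. The uninduced cells were the same clonal line, harvested at the same time without the drug. Both grew in medium with 10% serum and 2.6 µg/ml puromycin, which selects for the transgene. The 3 libraries of a group came from separate cultures of 1 clone, so the p-values describe the spread between cultures, and an effect of mouse Dux and a property of that clone cannot be told apart. A clonal C2C12 line carrying a firefly luciferase transgene, with 3 cultures on doxycycline and 3 without under the same selection, was used to show what doxycycline and induction of an unrelated protein did.

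Dux is a transcription factor with a pair of homeodomains. It is made briefly in the early mouse embryo, when the genome of the zygote is first transcribed, and it is known to activate genes and repeats that mark the 2-cell stage, among them the Zscan4 cluster. Its human relative DUX4 is normally silent in muscle, and its misexpression there underlies facioscapulohumeral muscular dystrophy, with death of muscle cells. C2C12 myoblasts are dividing muscle precursors that can exit the cell cycle and fuse into myotubes.

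Short stretches of DNA just upstream of the most raised genes show how alike the members of the Zscan4 cluster are. Promoters (250 bases before to 50 bases after the annotated start, from RefSeq, build GRCm38.p6) were found for 10096 of the 12702 tested genes. They were searched on both strands for 11-base sequences related to the sites described for Dux and DUX4, the first reading TGATT, any 2 bases, ATCA, and the second reading TAATC, any 2 bases, ATCA. No stretch can match both. Each window below has 61 bases, runs 5′ to 3′ on the gene's own strand, and has the match in capitals with 25 bases on either side. On this strand the Zscan4 match is the reverse complement of the first form. The last window belongs to Pramef6 and holds the second form. Trim30a, a tripartite-motif gene, has 2 RefSeq promoter entries.
Zscan4b chr7:10905106-10905166 (minus strand): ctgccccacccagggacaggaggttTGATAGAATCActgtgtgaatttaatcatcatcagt
Zscan4c chr7:11005606-11005666 (plus strand): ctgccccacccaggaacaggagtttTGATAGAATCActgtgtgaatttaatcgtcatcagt
Zscan4d chr7:11166238-11166298 (minus strand): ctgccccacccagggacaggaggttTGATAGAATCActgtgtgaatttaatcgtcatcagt
Zscan4f chr7:11397799-11397859 (plus strand): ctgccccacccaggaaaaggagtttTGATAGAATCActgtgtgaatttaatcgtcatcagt
Trim30a chr7:104465357-104465417 (minus strand): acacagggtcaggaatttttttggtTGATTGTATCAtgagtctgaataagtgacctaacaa
Trim30a chr7:104446254-104446314 (minus strand): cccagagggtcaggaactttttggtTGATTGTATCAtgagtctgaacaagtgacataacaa
Pramef6 chr4:143900448-143900508 (minus strand): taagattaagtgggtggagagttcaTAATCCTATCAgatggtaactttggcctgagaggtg
The 4 Zscan4 windows shared 57 to 60 of their 61 bases in pairs, and their matches began 91 to 125 bases before the annotated start. The first form was present in 5 of the 582 promoters of strongly raised genes (0.859%), all of them in the lines above, and in 13 of the 10096 promoters of tested genes (0.129%). Of those 5 promoters 4 are the near-identical Zscan4 copies, which are not independent and are also among the 13. The first form was present in 0 of the 155 promoters of strongly lowered genes. The second form was present in 1 of the 582 and in 10 of the 10096 (0.0990%). With the 2 middle bases fixed, to CA in the first form and to TA in the second, 0 and 1 of the 10096 promoters held a match. A match is a description of these letters in this window only, and most raised genes had none.

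Libraries held 11010586 to 16958640 counts, within the range of the series (11010586 to 17179642). Levels are given as CPM, the counts of a gene over the library's total on a fixed scale, after scaling for composition by the trimmed mean of M values (TMM), and are not corrected for transcript length. A gene was called raised or lowered at a Benjamini-Hochberg adjusted p under 0.05 in edgeR's quasi-likelihood test, and strongly so when its log2 fold change was also at least 2 in size. Of 12702 tested genes, 3994 (31.4%) were raised, 3765 (29.6%) were lowered, 805 (6.34%) were strongly raised and 224 (1.76%) were strongly lowered. Counts within the gene lists below are to be read beside these shares. A gene near 0 in 1 group passed the filter on low counts only through the other group. The direction of its change was thus largely set by its being tested. The median log2 fold change was 0.000830. The groups did not overlap for 8636 genes (68%), 34% in each direction. Under scaling by library size alone the median of all genes moved to −0.26. Induced library 1 stood apart from its group: its counts differed from those of induced libraries 2 and 3 by a chi-square per degree of freedom of 34.0 and 36.4, against 2.14 between those 2. It gave weaker signal from long transcripts, so results that rest on it are also given without it.

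The luciferase line showed far fewer large changes with doxycycline. Of 13292 genes tested, 1663 (12.5%) were higher and 1896 (14.3%) lower with the drug, and 30 (0.226%) and 130 (0.978%) passed a log2 fold change of 2. The test of the difference between the lines called 3929 genes (29.6%) with a higher response in the mouse Dux line and 3713 (27.9%) with a lower one, and 6.18% and 2.32% of the genes tested differed by at least 2 on the log2 scale in these directions. Of the 805 strongly raised genes, 617 also responded more than in the luciferase line and 97 were raised there too. For 96 of the 805 no luciferase library had a count, and for these, as for genes such as A2m and Ric3 with no count in the untreated luciferase group, that test was uninformative. Of the 224 strongly lowered genes, 212 responded lower than in the luciferase line and 64 were also lowered there.

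**Figure D1:**
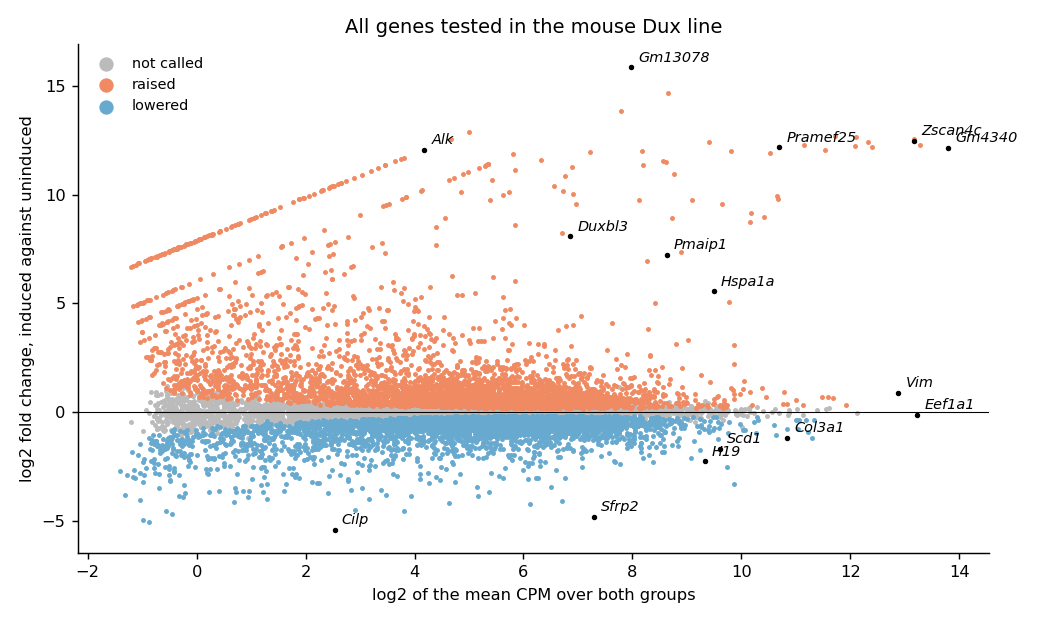
Each point is 1 of the 12702 tested genes, with the log2 of its mean CPM over both groups on the horizontal axis and its log2 fold change, induced against uninduced, on the vertical axis; orange points were raised, blue points lowered and grey points not called. The rises reach above 12 on the log2 scale, as for Zscan4c, while the deepest labelled fall is that of Cilp at −5.41.

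The row for Dux itself was low in all 6 libraries. It read 1.55, 1.78 and 1.66 CPM in the induced libraries and 0.0826, 0.113 and 0 CPM in the uninduced libraries. The groups did not overlap, but the sums were only 71 and 3 counts, a ratio of 25.4 with an exact 95% interval from 8.35 to 126 for counting error. The transgene is codon-altered and the program that counted the reads is not known here, so whether these counts came from the transgene or from the endogenous gene was not tested. Duxbl3, a Dux-like double-homeobox gene, read 237, 226 and 231 CPM induced and 0.743, 1.36 and 0.372 CPM uninduced. It rose by 8.08 on the log2 scale (SE 0.24, adjusted p = 5.92e-08 in edgeR) and differed between the lines, since in the luciferase line it changed by −0.73. Among 10 tested double-homeobox and paired-like homeobox genes 6 rose and 3 fell. Obox3, an oocyte-specific homeobox gene, had 0 counts in each uninduced library and 15.5, 13.8 and 15.1 CPM in the induced ones, at least 227-fold higher against a floor of 3 counts over the group. Those that fell included Prrx1 (−1.99) and Prrx2 (−1.54), homeobox genes of mesenchyme.

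The Zscan4 genes, which encode zinc-finger proteins of the 2-cell embryo linked to telomere maintenance, went from a few counts to among the most counted RNAs in the cell. Zscan4c read 18607, 17824 and 18868 CPM in the induced libraries and 3.80, 2.88 and 3.04 CPM in the uninduced libraries. The groups were separated by more than 3 orders of magnitude, with little spread inside each. The log2 fold change was 12.49 (SE 0.15, adjusted p = 1.18e-09 in edgeR). All 5 family members in the table (Zscan4a, Zscan4b, Zscan4c, Zscan4d and Zscan4f) rose, by 12.23 to 12.66, with a median of 12.49. Together they took 5.88% ± 0.144 (SD, n = 3) of all counts after induction and 0.00126% ± 0.000314 before it. Because the family's sequences are nearly identical, as the windows above show for their promoters, the split of reads between its members is uncertain and the sum is the firmer value.

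Prame-like genes, relatives of the human PRAMEF family expressed in germ cells and early embryos, rose in the same way. Pramef25 read 3599.7, 3069.8 and 3259 CPM induced and 0.908, 0.565 and 0.683 CPM uninduced, a rise of 12.19 on the log2 scale (SE 0.17, adjusted p = 1.63e-09 in edgeR). Gm13078 had 0 counts in every uninduced library and 559, 467 and 491 CPM in the induced ones, at least 7777-fold higher. Pramef6, whose window is shown above, had 1 count in the 3 uninduced libraries together and 428, 437 and 459 CPM after induction, a ratio of 20251 with an interval from 3634 to 799924. Gm13057 took the largest share of the family, with 21441, 18359.9 and 19471 CPM against 5.20, 3.05 and 3.91 CPM. The deposited counts hold 33 genes of the family. Of these, 20 were tested, and all 20 rose and were strongly raised, with a median of 11.66. The median was 11.79 with 13 tested genes near 0 uninduced set at other values. These were the floor where no uninduced count was present, and otherwise the plain ratio of counts, which is not a lower bound. These 13 tested genes passed the filter on low counts through the induced libraries alone, so their rise was largely set by being tested. The 13 untested genes of the family did not pass that filter, and 7 of them were at 0 in all 6 libraries. The smallest rise was that of Pramef8, at 2.37, whose uninduced level was already 35.9 CPM.

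The Usp17l genes, which encode deubiquitinating enzymes and have human counterparts activated by DUX4, all rose as well, 5 of 5 tested, with a median of 10.40. Usp17la read 1107, 1051 and 1103 CPM induced and 1.16, 0.961 and 1.68 CPM uninduced. Of 40 genes in the table from a list of other 2-cell-stage transcripts 32 were tested. Of these 29 rose, 28 of them strongly, and Ddit4l, Nelfa and Spin1 were not called. The median was 10.25, or 9.88 with 17 tested genes near 0 uninduced set at the floor or the plain ratio. Those 17 passed the filter through the induced libraries alone. In the luciferase line 7 of the 32 were also raised, and the response was higher in the mouse Dux line for 19. For members without a luciferase count, such as Slc34a2, that comparison was uninformative, so the 19 does not mean that the rest responded alike. Gm4340 read 32151, 26196 and 26842 CPM induced against 9.08, 4.64 and 5.40 CPM uninduced, and induced library 1 was the highest of the 3. Zfp352, a zinc-finger gene of the 2-cell embryo, read 34.2, 35.3 and 36.7 CPM and had 1 count in the 3 uninduced libraries together. Tcstv1, another transcript of that stage, rose by 11.28, from 0.0859 ± 0.0257 to 238 ± 31.3 CPM (SD, n = 3). Across these 4 groups of embryonic genes 58 of 83 genes in the table were strongly raised, and together they took 14.2%, 12.8% and 13.4% of the counts of induced libraries 1, 2 and 3. In the uninduced libraries they took 0.0299%, 0.0290% and 0.0299%. A list of mouse counterparts of human DUX4 targets had 30 genes in the table, of which 18 were tested. Of those 16 rose and 1, Sytl2, fell. The untested ones did not pass the filter on low counts, and 5 of them were at 0 in all 6 libraries. Members near 0 uninduced, such as Pramef6 and Slc34a2, were tested only because they were counted after induction. The list shares 3 genes with the Zscan4 list, 3 with the Usp17l list, 4 with the Prame-like list and 3 with the other 2-cell genes, so these rises are in part the same ones. Kdm4d, a histone demethylase gene, rose by 7.30, whereas Ccna1, a germ-cell cyclin and a human DUX4 target, had 1 count after induction and 8 before, and was not tested.

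For many of the most abundant of these genes the uninduced level was a like, very small share of the induced level. Of 26 strongly raised genes with at least 1000 CPM after induction, 15 had an uninduced level between 0.0150% and 0.0276% of it (median 0.0208%), each under a limit of 0.1% set after the values were seen. For the same 15 genes the mean over the 6 luciferase libraries was 0.0124% to 0.0198% of the induced level (median 0.0169%). Scaled over all 18 libraries, Zscan4c stood at 3.33 ± 0.506 CPM in the uninduced mouse Dux libraries. It stood at 3.13 ± 0.489 and 3.35 ± 0.281 CPM in the luciferase libraries with and without doxycycline (SD, n = 3). Where these few counts came from was not tested, and the folds of these genes depend on them. The other abundant genes lay above that limit. Usp17la was just above it, at 0.118% without doxycycline, and in an array on chromosome 12 Gm2016 was at 0.829% and Gm5662 at 1.14% of the induced level in the luciferase libraries.

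**Figure D2:**
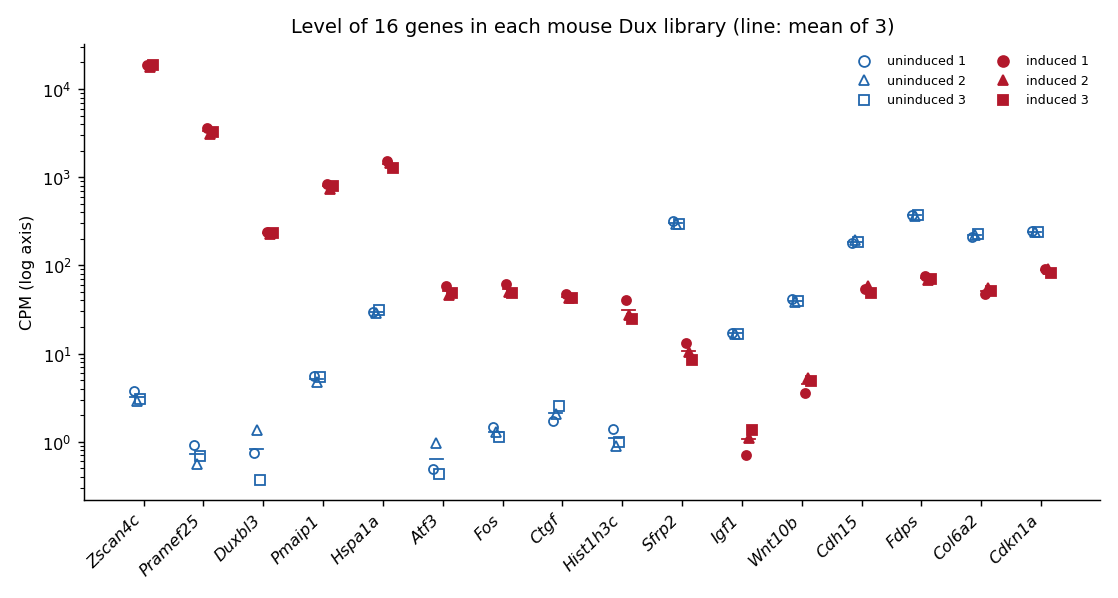
The CPM of 16 genes is drawn on a log axis for each of the 3 uninduced (open blue) and 3 induced (filled red) libraries, with symbols for library 1, 2 and 3 and a line at the mean of 3. The 16 genes were picked among called genes, and the groups do not overlap for any of them, against 68% of all tested genes. Induced library 1 lies highest of its group for Hist1h3c and lowest for Igf1.

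Raised genes stood side by side in the genome. Of 803 strongly raised genes with a position in GRCm38.p6, 299 (37.2%) had a strongly raised gene as the next tested gene on either side, against 1439 of all 12679 tested genes with a position (11.3%). For strongly lowered genes the shares were 12.1% and 3.44%. There were 22 runs of at least 4 neighbouring strongly raised genes, holding 158 genes. The longest was on chromosome 4, from 143412155 to 144364419, with 16 genes from Pramef8 to Gm13119, nearly all Prame-like. The Zscan4 run on chromosome 7, from 10794241 to 11402318, held all 5 members, and a run of 8 on the same chromosome held Usp17la to Usp17ld and Trim30a. A run of 6 held the Obox genes and another, on chromosome 13, held Tcstv1 and Tcstv3 among 7 genes. Runs of 12 and 8 histone genes also lay on chromosome 13, where 71 of 518 tested genes (13.7%) were strongly raised. Near-identical copies lie in most of these runs and could share reads, so the neighbours are not independent measurements.

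Among 17 tested genes of the BCL2 family, which governs apoptosis, Pmaip1 rose most. Pmaip1 encodes Noxa, a pro-apoptotic BH3-only protein, and read 836, 731 and 789 CPM in the induced libraries and 5.53, 4.69 and 5.40 CPM in the uninduced libraries. The log2 fold change was 7.24 (SE 0.11, adjusted p = 2.14e-09 in edgeR), and in the luciferase line it was 0.14 (adjusted p = 0.237). Of the 17 genes 4 rose and 6 fell, beside 31.4% raised and 29.6% lowered of all tested genes. Other pro-apoptotic BH3-only genes fell: Bcl2l11 (Bim) read 12.1, 12.6 and 13.3 CPM induced and 40.4, 40.5 and 42.4 CPM uninduced, a change of −1.70, Bmf changed by −1.53 and Bbc3 (Puma) by −1.20. Bcl2, which protects cells from apoptosis, rose by 2.15, from 5.57 ± 0.395 to 24.9 ± 3.63 CPM (SD, n = 3). Mcl1, a pro-survival relative that Noxa binds, rose by 0.45.

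Genes of the p53 pathway moved in both directions, 14 raised and 16 lowered of 37 tested, as did all tested genes (31.4% raised, 29.6% lowered). Cdkn1a, the p21 inhibitor of the cell cycle and a well-known p53 target, read 90.8, 91.2 and 82.9 CPM induced and 246, 241 and 238 CPM uninduced. It fell by 1.45 on the log2 scale with no overlap, and in the luciferase line it changed by 0.04. Mdm2, the p53 ubiquitin ligase, rose by 0.36, a call that is lost under scaling by library size alone, and Trp53 itself changed by −0.37. Plk3, a stress-responsive kinase, rose by 4.02, from 7.42 ± 0.889 to 121 ± 13.1 CPM (SD, n = 3).

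The inducible Hsp70 chaperones, which refold damaged proteins, rose most among heat shock genes. Hspa1a, on chromosome 17 from 34969359 to 34972156 in GRCm38.p6, read 1511, 1462 and 1260.4 CPM induced and 29.6, 29.1 and 31.03 CPM uninduced, and Hspa1b read 1806, 1756 and 1519 and 50.2, 48.9 and 52.2 CPM. The induced libraries lay far above the uninduced ones for both genes, with no overlap. The log2 fold changes were 5.56 (SE 0.11, adjusted p = 5.21e-09) and 5.07 (SE 0.10, adjusted p = 7.40e-09) in edgeR, but the 2 genes are near-identical neighbours and their split is uncertain. In the luciferase line both fell, with log2 fold changes of −0.49 and −0.46. Hspa1l, beside them in the genome, rose by 4.67, Hspa2, known from the testis, by 2.87 and the Hsp110 gene Hsph1 by 2.19. Of 34 heat shock and cochaperone genes 21 rose and 8 fell, with a median of 0.40, and 15 rose and 9 fell with a median of 0.14 when scaled by library size alone. In the luciferase line 1 rose and 19 fell, with a median of −0.22, and the response was higher in the mouse Dux line for 23. Hsp90ab1 and Hspb1 were not called, and Hspb6 and Hspb8, small heat shock proteins of muscle, fell by 0.78 and 0.67.

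Targets of the integrated stress response and the unfolded protein response rose broadly, 36 of 46 with 1 lowered and a median of 0.86. Atf3, a transcription factor induced by many stresses, read 58.01, 46.4 and 49.03 CPM induced and 0.495, 0.961 and 0.434 CPM uninduced, a rise of 6.28 on the log2 scale (SE 0.21, adjusted p = 1.13e-07 in edgeR). Ppp1r15a, the Gadd34 phosphatase subunit that restores translation, rose by 3.03 and the cystathionine lyase gene Cth by 4.37. Atf4, the central factor of that response, rose by 1.05, and Hspa5, the chaperone of the endoplasmic reticulum, by 1.06. Part of the same list also moved in the luciferase line, where 29 of 46 rose and 8 fell, with a median of 0.47. There Atf4 rose by 0.73, and Ddit3 (Chop) rose by 1.89, against 1.05 in the mouse Dux line, whereas Hspa5 changed by −0.08. The response was higher in the mouse Dux line for 26 of the 46 genes and lower for 6.

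Immediate early genes, which respond within minutes to growth factors and stress, were higher 36 hours after induction. Fos read 62.2, 50.3 and 48.3 CPM induced and 1.49, 1.30 and 1.12 CPM uninduced, a rise of 5.37 on the log2 scale (SE 0.16, adjusted p = 7.21e-08 in edgeR). Of 35 tested 29 rose and 2, Fosl2 and Jund, fell, with a median of 1.84, against 13 raised and 6 lowered in the luciferase line. Phosphatase genes that shut off MAP kinases rose too, Dusp2 by 4.20, Dusp6 by 3.42 and Dusp4 by 3.14. Ctgf, a matricellular gene that also serves as a YAP and TEAD target, read 47.2, 42.2 and 43.1 CPM induced and 1.73, 2.04 and 2.54 CPM uninduced. Each induced library lay above every uninduced one, a rise of 4.37, while in the luciferase line Ctgf fell by 1.15 on the log2 scale with the drug. Cyr61 and Ankrd1, further YAP targets, rose by 3.11 and 3.07, yet over the list of 28 such targets 12 rose and 10 fell, and 9 and 14 under scaling by library size alone.

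Clustered histone genes were raised without exception among those tested, 52 of 52, and 39 were strongly raised. Their messages normally end in a stem-loop instead of a poly(A) tail, so a polyA library captures only a part of them. Hist1h3c read 40.9, 27.4 and 24.5 CPM induced and 1.40, 0.905 and 0.993 CPM uninduced, with induced library 1 the highest, and rose by 4.85 (SE 0.28, adjusted p = 2.38e-06 in edgeR). The median was 3.56, and 3.34 without induced library 1. The summed level ran from 995 to 1509 CPM induced and from 203 to 244 CPM uninduced. In the luciferase line 1 rose and 10 fell, and the response was higher in the mouse Dux line for 50. Copies of the same histone are alike in sequence, and the split between genes is uncertain.

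The cell cycle genes set the lines apart. Of 58 mitosis and G2/M genes 2 rose and 35 fell in the mouse Dux line, with a median of −0.33 (1 and 49, with a median of −0.59, under scaling by library size alone), whereas in the luciferase line 57 fell, with a median of −2.40. The response was higher in the mouse Dux line for 55 of the 58. Kif11, the spindle motor, read 66.6, 72.3 and 74.7 CPM induced and 128, 142 and 135 CPM uninduced and fell by 0.92, against a fall by 3.0 in the luciferase line. Ccnb1, cyclin B1, was not called (−0.15, adjusted p = 0.214 in edgeR) and fell by 2.78 in the luciferase line. Without induced library 1 it was called, at −0.25 (adjusted p = 0.000494 in edgeR). The starting levels differed as well: scaled over all 18 libraries Ccnb1 stood at 126 ± 3.25 CPM in the uninduced mouse Dux line and at 40.4 ± 1.99 CPM in the untreated luciferase line (SD, n = 3). Of 55 DNA replication genes 17 rose and 8 fell with a median of 0.10, which turned to −0.16 with 8 raised and 23 lowered under scaling by library size alone. Without induced library 1 the counts were 24 and 16. In the luciferase line 48 of the 55 fell. Pcna, the replication clamp, rose by 1.20, and Ccne2, cyclin E2, read 19.2, 20.6 and 20.7 CPM induced and 9.58, 10.2 and 9.93 CPM uninduced. A difference between the transgenes and a difference between the clones cannot be told apart here.

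**Figure D3:**
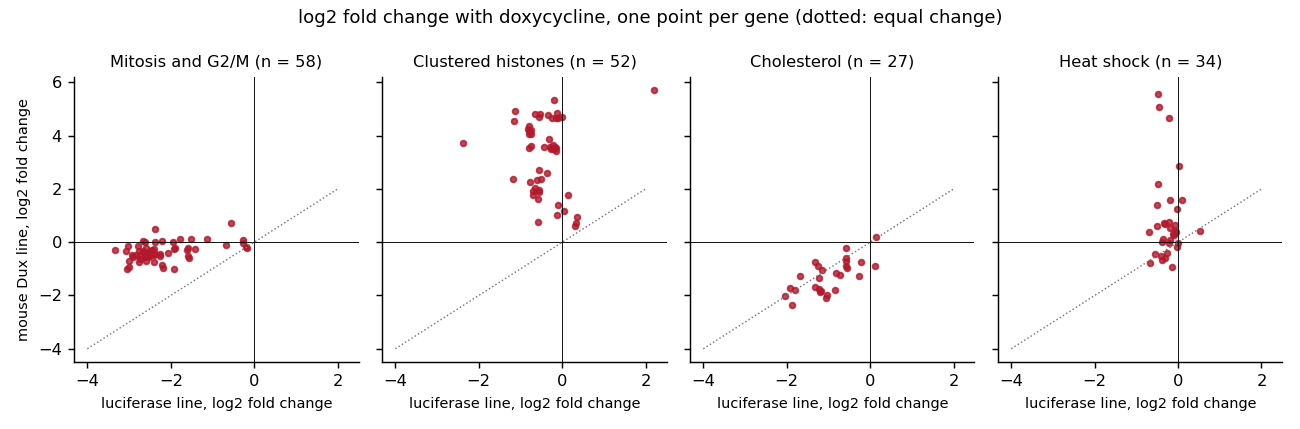
Each point is a tested gene, with its log2 fold change with doxycycline in the luciferase line on the horizontal axis and in the mouse Dux line on the vertical axis; panels hold 58 mitosis, 52 histone, 27 cholesterol and 34 heat shock genes, and the dotted line marks equal change. The mitosis genes lie far left near 0 on the vertical axis, the histone genes lie high above the dotted line, and the cholesterol genes lie near it, below 0 on both axes for most.

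Genes of cholesterol synthesis and uptake fell together. Fdps, which makes farnesyl pyrophosphate, read 76.5, 67.6 and 69.3 CPM induced and 374, 359.9 and 371 CPM uninduced and fell by 2.37 on the log2 scale (SE 0.08, adjusted p = 8.94e-08 in edgeR). Of 27 tested 26 fell and none rose, with a median of −1.25, and the regulator Scap was not called. The luciferase line fell likewise, 24 of 27 with a median of −1.06. Idi1, an early enzyme of the pathway, changed by −2.03 in the mouse Dux line and by −2.04 in the luciferase line. The response was lower in the mouse Dux line for 15 genes and higher for 4. Srebf2, the transcription factor that drives the pathway, was among the 15: it read 217, 231 and 226 CPM induced and 529.6, 538 and 539 CPM uninduced, a change of −1.25 against −0.27. Of 19 fatty acid synthesis genes 14 fell, with a median of −1.13, against 10 lowered and a median of −0.27 in the luciferase line. Scd1, a fatty acid desaturase, fell by 1.70, from 1194 ± 9.52 to 369 ± 24.3 CPM, while its relative Scd3 rose by 2.08.

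Several genes for secreted signals and matrix fell by far. Sfrp2, a secreted modulator of Wnt signalling on chromosome 3 from 83765750 to 83774314, read 13.2, 10.5 and 8.38 CPM induced and 317, 296 and 295 CPM uninduced. The groups were well apart, and induced library 1 was the highest of its group. The log2 fold change was −4.81 (SE 0.15, adjusted p = 9.36e-08 in edgeR), and −4.99 without induced library 1. The luciferase line started low, at 7.01 ± 1.07 CPM without doxycycline on the scale of all 18 libraries, and changed by 0.20 (adjusted p = 0.384). Wnt10b, a Wnt ligand, read 3.55, 5.28 and 4.84 and 41.4, 37.9 and 38.97 CPM, a change of −3.12. Dkk2, which blocks a Wnt co-receptor, and Wnt11 rose instead, by 2.44 and 4.46. Dkk2 also rose in the luciferase line, by 1.06, and the difference between the lines was 1.36 on the log2 scale. Over 33 genes of Wnt signalling 10 rose and 18 fell, with a median of −0.47.

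Igf1, a growth factor of muscle, read 0.711, 1.12 and 1.37 CPM induced and 17.2, 16.8 and 16.8 CPM uninduced, a change of −3.99 (SE 0.17, adjusted p = 5.43e-07 in edgeR). Igfbp5, which binds it, changed by −2.55, and the imprinted RNA H19 fell by 2.27, from 1063 ± 50.2 to 219 ± 19.9 CPM (SD, n = 3). Other members rose, among them Igfbp7 by 1.15, and the list stood at 7 raised and 6 lowered of 16, or 6 and 7 under scaling by library size alone. Csf2rb, the shared beta chain of cytokine receptors, read 1.10, 1.04 and 1.23 CPM induced and 28.6, 24.3 and 27.6 CPM uninduced, and rose by 1.75 in the luciferase line.

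None of 21 tested collagen genes rose and 15 fell, with a median of −0.81, against 3 raised and 7 lowered in the luciferase line. Without induced library 1 the counts were 2 and 16, with a median of −0.67. Starting levels differed between the clones. Col1a1 stood at 8.96 CPM uninduced, and at 6156 CPM in the untreated luciferase line on the scale of all 18 libraries. Col1a2 went the other way, at 1071 and 564 CPM. Col6a2, a chain of the collagen that surrounds muscle fibres, read 46.8, 55.1 and 50.6 CPM induced and 212, 222 and 225 CPM uninduced and fell by 2.11. Mmp2, a gelatinase, read 107, 109 and 112 and 483, 477 and 479.7 CPM and fell by 2.14. Small proteoglycan genes fell too, Ogn by 3.31, Dcn by 2.13 and Fmod by 2.10, and Cilp, a cartilage matrix gene, fell by 5.41 to under 0.3 CPM. Has2, which makes hyaluronan, went the other way: it read 352, 377 and 394 CPM induced and 23.8, 23.3 and 18.99 CPM uninduced, a rise of 4.09 (SE 0.11). The protease inhibitor Timp1 rose by 2.58 and the hyaluronan receptor Cd44 by 1.28, so that over 46 matrix genes other than collagens 15 rose and 24 fell.

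**Figure D4:**
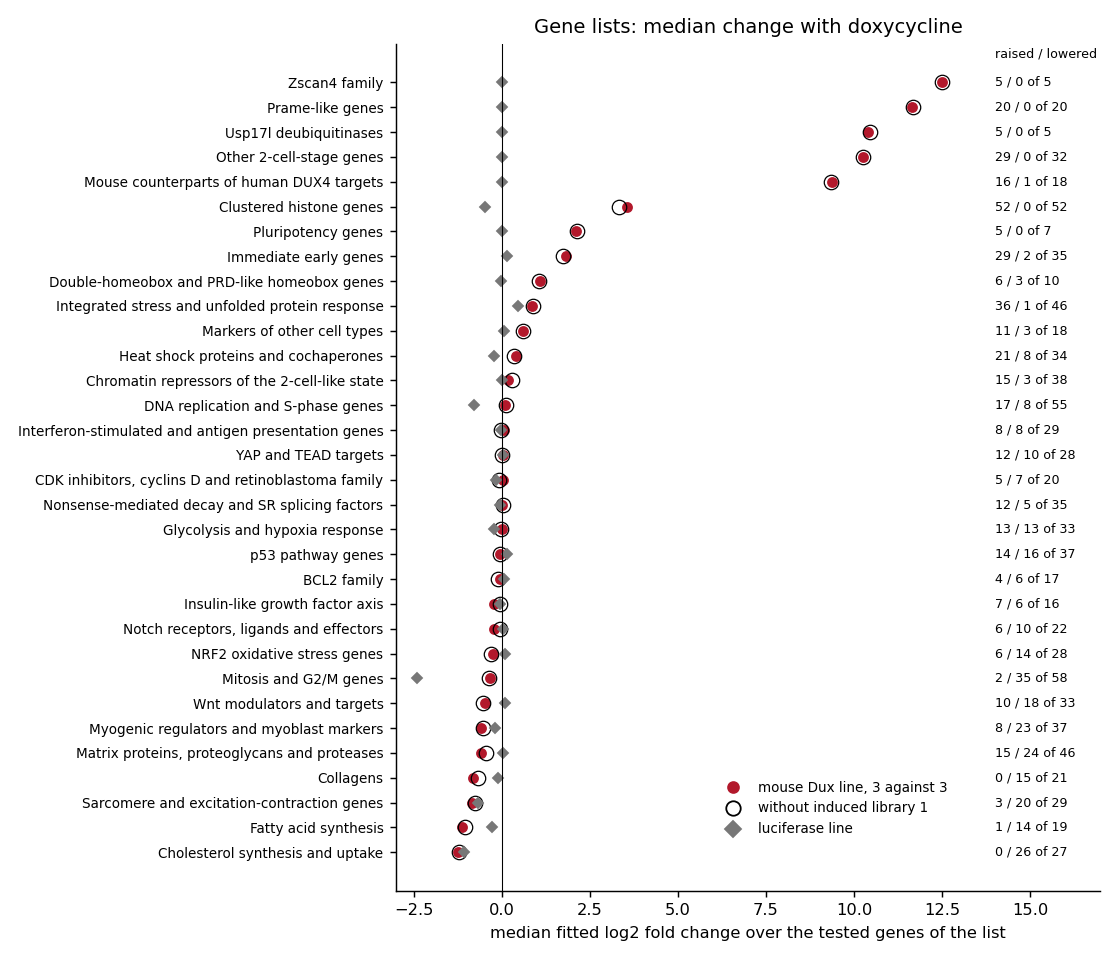
For each gene list the median fitted log2 fold change over its tested genes is drawn for the mouse Dux line (filled red), the same without induced library 1 (open black) and the luciferase line (grey diamond), with the numbers raised and lowered at the right. The Zscan4, Prame-like, Usp17l and other 2-cell lists lie above 10, clustered histones lie at 3.56, and cholesterol synthesis is lowest at −1.25, close to its luciferase value of −1.06. The other 2-cell median is 9.88 when its 17 genes near 0 uninduced are set at the floor or the plain ratio.

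Muscle genes fell more often than they rose. Of 37 myogenic regulators and myoblast markers 8 rose and 23 fell, with a median of −0.58, against 2 raised and 17 lowered in the luciferase line. Cdh15, the cadherin of myoblasts and satellite cells, read 53.9, 57.99 and 49.2 CPM induced and 179, 195 and 182 CPM uninduced, a change of −1.79 (SE 0.08, adjusted p = 7.25e-07 in edgeR). Myod1, the master regulator of the lineage, read 97.5, 86.1 and 76.98 and 126, 116 and 117 CPM and changed by −0.46, and by −0.39 in the luciferase line. The intermediate filament gene Des rose by 0.42, a call also lost under scaling by library size alone, and Id1, which holds Myod1 inactive, rose by 2.59. Of 29 tested sarcomere genes 3 rose and 20 fell, with a median of −0.85, and 24 fell in the luciferase line. Myl1, a myosin light chain, was an exception that rose by 4.88, from 0.377 ± 0.0821 to 11.1 ± 1.81 CPM, while Tnnt1, a slow troponin, fell by 3.07. Starting levels differed between the clones. In the untreated luciferase line, on the scale of all 18 libraries, Myl1 stood at 254 CPM and Myog at 194 CPM. Myog stood at 2.26 CPM in the uninduced mouse Dux line. Fgfr4 went the other way, at 11.3 CPM in the luciferase line and 42.8 CPM in the mouse Dux line. What part these levels have in the changes was not tested. In bulk RNA, fewer cells of a type and less RNA per cell cannot be told apart.

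Genes that mark pluripotent cells other than the 2-cell genes stayed mostly low. Pou5f1 had 0 counts in all 6 libraries and Nanog did not pass the filter, at 0.673 and 0.363 CPM. The deposited counts hold 26 genes of this list, 13 of them at 0 in all 6 libraries. Only 7 passed the filter and were tested. Of those 5 rose: Klf5 by 2.11, Klf2 by 2.57, Klf4, Esrrb and Sox2. Esrrb went from 0.217 to 7.17 CPM, and Sox2 had 84 counts after induction and 0 before. Esrrb and Sox2 passed the filter through the induced libraries alone, so their rise was largely set by being tested. Of 38 tested repressors known to hold down the 2-cell programme in embryonic stem cells 15 rose and 3 fell, with a median of 0.17 that turned to −0.09, with 11 raised and 12 lowered, under scaling by library size alone. Without induced library 1 the counts were 22 and 3 and the median was 0.30. Uhrf1, which maintains DNA methylation, rose by 0.95 and Ezh2, the Polycomb methyltransferase, by 0.90. Ehmt2, a histone H3 methyltransferase, fell by 0.67.

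In lists on interferon, Notch, glycolysis, oxidative stress and RNA decay, rises and falls were mixed. Mixed counts are also what all tested genes show, with 31.4% raised and 29.6% lowered. Of 29 tested interferon-stimulated and antigen presentation genes 8 rose and 8 fell, with Irf7 raised by 2.81 and the peptide transporter gene Tap2 lowered by 1.51. Of 22 Notch genes 6 rose and 10 fell, with the target Hey1 raised by 2.09 and the receptor Notch2 lowered by 1.66. Of 33 glycolysis and hypoxia genes 13 rose and 13 fell, with hexokinase Hk2 raised by 2.13 and the glucose transporter gene Slc2a1 by 1.27. Of 28 NRF2 genes 6 rose and 14 fell, with the glutathione transferase Gstm1 lowered by 1.67. Of 35 genes of nonsense-mediated decay and SR splicing 12 rose and 5 fell, and Upf1, the central helicase of that decay, was not called (−0.14). Of 20 CDK inhibitors, D cyclins and retinoblastoma genes 5 rose and 7 fell, with Ccnd2, cyclin D2, raised by 1.78. Under scaling by library size alone falls outnumbered rises in each of these lists: 7 rose and 14 fell of the interferon genes, 10 and 17 of the glycolysis genes, and 5 and 17 of the decay and splicing genes.

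Of 39 defining markers of other cell types 18 passed the filter on low counts. Of these 11 rose and 3 fell, with a median of 0.61, beside 31.4% raised and 29.6% lowered of all tested genes. Strong rises numbered 3, the largest at 3.96 on the log2 scale. Other markers were at or near 0. The leukocyte marker Ptprc and the epithelial marker Epcam had 3 counts each over the induced libraries and 0 over the uninduced ones, and the endothelial marker Pecam1 had 12 and 4. The summed level of the list ran from 2813 to 3464 CPM induced and from 2264 to 2365 CPM uninduced, most of it from the actin gene Acta2. Those that rose included Cebpa, a factor of fat and myeloid cells, by 2.22, and Tagln, a smooth muscle gene, by 1.00. Myf5, a marker of muscle precursors, had 2 counts induced and 11 uninduced, whereas Myod1, Des and Cdh15 were present in every library. The clones differed in Myf5 before induction. It stood at 0.251 CPM in the uninduced mouse Dux line, and at 105 CPM in the untreated luciferase line on the scale of all 18 libraries. Whether these markers had a part in the other changes was not tested.

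Induced library 1 differed from its group by transcript length. Relative to the other induced libraries its median log2 ratio was 0.26 in the shortest quartile of transcripts (81 to 2227 bases), then 0.09 and −0.07, and −0.33 in the longest quartile (4848 to 123179 bases). Uninduced library 1 leaned the same way by less, from 0.06 to −0.07. Dst, which encodes a very large cytoskeletal linker, read 274, 991 and 1018 CPM induced and 396, 650.3 and 669 CPM uninduced, with both first libraries lowest, and D830031N03Rik read 41.6, 418 and 432 and 99.6, 148 and 149 CPM. With all 3 induced libraries neither was called (adjusted p = 0.444 and 0.169 in edgeR), and without induced library 1 both were called raised, with log2 fold changes of 0.82 and 1.68 against 0.41 and 1.17 (adjusted p = 1.11e-05 and 1.04e-11). D830031N03Rik had no matched length. Leaving that library out raised the counts to 4819 raised (37.6%) and 4526 lowered (35.3%), and 7665 of the 7757 genes called with all 3 that could be tested were called in the same direction. The share of called genes that rose then climbed with length, from 42.1% in the shortest quartile to 61.0% in the longest. With all 3 libraries it was 50.03% and 53.2%, and with the length trend removed within groups 48.8% and 50.3%. That removal brings each library to its group mean, which includes induced library 1. It therefore leaves any length difference between the group means in place.

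**Figure D5:**
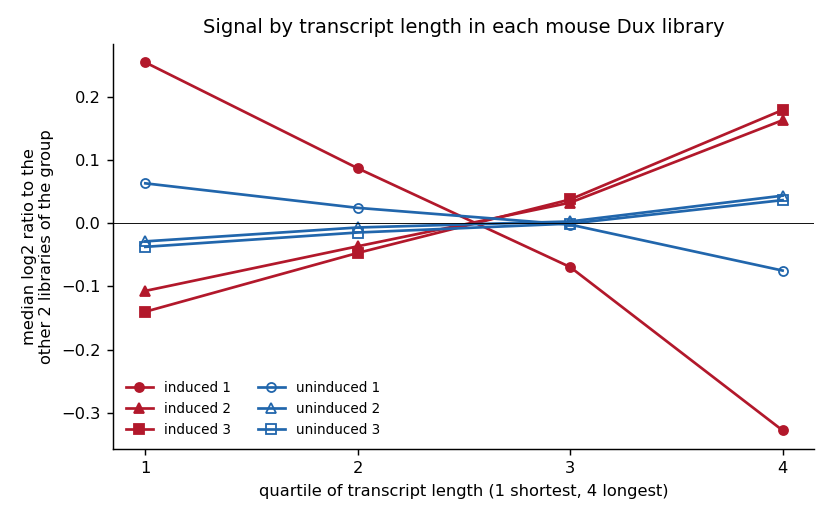
The median log2 ratio of each library to the other 2 of its group is drawn against the quartile of transcript length, red for induced and blue for uninduced libraries. Induced library 1 falls from 0.26 to −0.33 while induced libraries 2 and 3 rise, and the uninduced libraries stay within 0.08 of 0.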

How the data were processed

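PolyA RNA-seq of 6 mouse Dux libraries and, for comparison, 6 luciferase libraries was analysed. Per the labels' protocols, libraries were made with the TruSeq RNA Sample Prep v2 kit and pooled for sequencing. The build mm10, Bowtie2 2.2.3, TopHat2 2.0.12 and CASAVA are named, without their roles, per the submitters' processing notes. Neither the counting program nor its annotation and strand setting is given in the sources used here. Reads of overlapping or near-identical genes may therefore be split between them. The deposited table holds raw counts for 24028 genes, 5017 of them without any count, and 27 symbols that a spreadsheet had turned into dates were restored from their Entrez numbers.

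Counts were tested with edgeR 4.0.16 (R 4.3.3) after its own filter on low counts and TMM scaling, by the quasi-likelihood F test on the 6 mouse Dux libraries, since the spread differs between lines. The difference from luciferase was an interaction term over 12 libraries. The SE is the log2 fold change divided by the root of F. Counts of 3 or less over a group gave a floor or an exact 95% Clopper-Pearson ratio interval, which cover counting error only. Lengths (GENCODE vM21, matched for 95.0% of genes) and positions (RefSeq GRCm38.p6, 99.7%) came from reference tables.

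The members and gene lists were chosen with earlier results of these data known. Named genes are Dux, the 5 markers, the 15 largest rises and 15 largest falls at 10 CPM or more without overlap, anchors and the 3 most changed called members of each list, the 8 genes on which induced library 1 differs most, and those with the highest share of counts. Others named were chosen after their values were seen. In simulated counts for the mouse Dux comparison (12529 genes) the test recovered 40 of 50 genes changed 1.5-fold, 49 of 50 changed 2-fold and all 50 changed 4-fold, and 4.06% of its calls were false. For the difference between lines (12953 genes) it recovered 24, 46 and 50 of 50. In both simulations only a small set of well-counted genes changed, as many up as down, and no library had a length trend. In the data 61.1% of genes were called in the mouse Dux comparison, so the simulated shares need not hold there.

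Replicate numbers come from the labels. The deviations of same-numbered induced and uninduced libraries from their group means correlated at 0.43, 0.24 and 0.22. No label says what a shared number marks. The main test therefore did not pair the libraries, and a replicate block was fitted as an alternative. Libraries 2 and 3 correlated as well when crossed (0.23 and 0.20), so the deviations set library 1 apart but do not tell numbers 2 and 3 apart. Further alternatives were all 18 libraries in 1 fit, other scalings, DESeq2 1.42.0, limma 3.58.1 with voom quality weights, other filters, removal of a length trend, a minimum fold and leaving out single libraries. Leaving out library 1 of both groups was added after seeing the data.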

Additional observations from a re-analysis of the deposited data

Results flagged for a closer look

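Among the named genes, 5 were called in opposite directions in the mouse Dux and luciferase lines, each by at least 1 on the log2 scale, with a called difference between the lines in edgeR. Csf2rb, the cytokine receptor chain, changed by −4.57 with mouse Dux and by 1.75 with luciferase, a difference of −6.33 (adjusted p = 1.28e-11). Scaled over all 18 libraries it stood at 27.6 ± 2.38 and 1.14 ± 0.0986 CPM without and with doxycycline in the mouse Dux line, and at 14.6 ± 1.12 and 49.1 ± 6.13 CPM in the luciferase line (SD, n = 3). Ctgf changed by 4.37 and −1.15, a difference of 5.50 (adjusted p = 2.64e-12), from uninduced levels of 2.16 ± 0.420 and 51.9 ± 3.92 CPM. Ccne2, cyclin E2, changed by 1.02 and −2.65, a difference of 3.65 (adjusted p = 1.35e-09). Dcn, the small proteoglycan decorin, changed by −2.13 and 1.02, a difference of −3.17 (adjusted p = 6.01e-10). Tagln changed by 1.00 and −1.68, a difference of 2.67 (adjusted p = 2.48e-10). The lines are separate clones with different starting levels of these genes, and what part that has in the differences was not tested.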

How the results depend on the processing

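The counts of raised and lowered genes (3994 and 3765) moved by over 1.5 times under few alternatives. Scaling by library size alone gave 6048 lowered genes and 5679 with a lower response than luciferase; 31.0% of called genes were then raised against 51.5% (31.9% against 51.4% for the response), and Cdk1, Ccnd1 and Upf3b, not called before, came to −0.24, −0.23 and −0.24. A test against a minimum log2 fold change of 1 gave 1206 raised and 562 lowered. Strongly raised genes numbered 1358 with no filter and 424 with at least 5 CPM in 3 libraries, where 124 were strongly lowered. Leaving out 1 library at a time gave 3553 to 4819 raised, 3203 to 4526 lowered, 843 to 895 strongly raised and 229 to 249 strongly lowered genes, and 3637 to 4515 with a higher and 3414 to 4267 with a lower response than luciferase. Kmt2d, not called with all libraries (−0.08), ranged from −0.32 to 0.29 as single libraries were left out, the highest without induced library 1, and came to 0.12 without library 1 of both groups, an alternative chosen after seeing the data. With the replicate block 4219 genes were raised and 4132 lowered, and 4093 responded more and 3991 less than in the luciferase line. Of the named genes only Notch1, B2m and Hspg2 then changed their call, all becoming called. Over all named genes and alternatives 2947 results kept direction and call, 66 became called, 29 lost their call and 5 turned. Of the list medians 405 stayed within the SD of the list's median level over the induced libraries and 107 moved by more, most often under scaling by library size alone. Depth limits genes with few uninduced counts: 232 of the 805 strongly raised genes had 3 or fewer, and their folds are bounds or wide intervals.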

Other observations

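Some strongly raised neighbours belonged to groups of genes on no list, and those named here were chosen after their values were seen. On chromosome 3, from 92080271 to 93471980, a run of 10 held genes of the cornified envelope of skin, among them Lor (loricrin), Sprr2g, Lce1f, Crct1 and Tchh (trichohyalin). Their levels stayed low: Crct1 read 14.02, 9.89 and 10.9 CPM induced and 0, 0.0565 and 0.0621 CPM uninduced, and Sprr2g had 255 counts over the induced libraries and 1 over the uninduced ones. On chromosome 11, from 48887422 to 49096987, a run of 7 held Tgtp1, Tgtp2 and Ifi47, GTPase genes known from the interferon response. Tgtp2 read 6.98, 4.91 and 7.004 CPM induced and 0.743, 0.792 and 0.993 CPM uninduced.

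Several single genes of signalling, also chosen after their values were seen, moved by far. Ptgs2, the inducible cyclooxygenase, read 633, 657 and 695 CPM induced and 22.9, 18.1 and 20.7 CPM uninduced, a log2 fold change of 5.01. Il33, an alarmin cytokine, rose by 4.33, from 5.50 ± 0.907 to 110.5 ± 6.89 CPM (SD, n = 3). The receptor tyrosine kinase gene Ret read 73.1, 90.3 and 92.9 CPM induced and 0.991, 1.07 and 1.37 CPM uninduced. Alk, another such receptor, had 0 uninduced counts and 32.4, 39.9 and 36.5 CPM induced, at least 553-fold higher, and it was also raised in the luciferase line, by 3.71. Nfix, a transcription factor of fetal muscle, fell by 2.11, from 871 ± 53.3 to 201 ± 31.8 CPM, and Gas1, a growth arrest gene, fell by 2.32. Cxcl12, the ligand of Cxcr4, fell by 2.24 and rose by 1.38 in the luciferase line.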
